A study of Caenorhabditis elegans with 12 samples.

Results

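The 2 alleles of *atfs-1*, one that removes the gene and one that leaves it active, were set against each other across all 12 RNA-seq libraries of the study, gene by gene. Every gene that passed a filter on low counts was a member. Of 46739 genes in the deposited table, 16188 passed it and 43720 could be given a symbol. Each of the 16188 genes was given a change in *atfs-1(null)* worms, a change in *atfs-1(et18)* worms and the difference between them, and was then sorted by whether it moved the opposite way in the alleles, the same way, or in one of them alone.

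ATFS-1 is the bZIP transcription factor of the mitochondrial unfolded protein response in *Caenorhabditis elegans*. It carries both a mitochondrial targeting sequence and a nuclear localization sequence. In healthy cells it is imported into mitochondria and degraded, and when import falls it enters the nucleus, where it is known to raise the expression of mitochondrial chaperones, import components and metabolic genes. A strain without the factor and a strain in which it is active at all times therefore depart from wild type in opposite directions of its activity.

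Whole worms at the L4 stage were sequenced in 2 experiments, each with 3 libraries of the wild-type strain N2 and 3 libraries of a mutant in the N2 background. *atfs-1(null)* worms lack the whole open reading frame of the gene and were set against the N2 of experiment 1. *atfs-1(et18)* worms carry an amino acid substitution in the mitochondrial targeting sequence that impairs import, were received from another laboratory, and were set against the N2 of experiment 2, which the labels call a second batch. The labels give growth on OP50 bacteria for every library, the study's methods describe HT115 bacteria for worms used for RNA, and no agent was added. Because each allele was sequenced in its own experiment, an effect of the experiment on how a mutant differs from N2 and an effect of the allele cannot be told apart. The study describes the experiments behind its sequencing tables as biologically independent, but neither it nor the labels say which libraries shared a culture or a day, and the p-values measure the spread between these libraries. In whole worms, fewer cells of a type and less RNA per cell cannot be told apart.

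Total counts lay between 24090660 and 37050803 per library. In each mutant 1 library stood apart from the other pair. *atfs-1(null)* replicate 3 correlated with the other *atfs-1(null)* libraries at 0.971 to 0.972 across genes and *atfs-1(et18)* replicate 2 with its own at 0.956 to 0.967, whereas all remaining pairs within a group reached 0.983 or more. These were also the libraries of their groups with the highest sums of yolk transcripts and of a list of germline markers, while sperm transcripts were lowest in *atfs-1(null)* replicate 3. The 6 vitellogenin genes, which encode yolk proteins made in the adult intestine, summed to 34361 CPM (counts scaled to the same library size with TMM factors) in *atfs-1(null)* replicate 3 and 21299 in *atfs-1(et18)* replicate 2. They summed to 11184 and 11789.6 in the other *atfs-1(null)* libraries, to 5254 and 3215 in the other *atfs-1(et18)* libraries, and to between 721 and 7328 in N2. A list of 7 germline genes summed to 444 to 818 CPM in the N2 and 1734 to 2937 CPM in the *atfs-1(null)* libraries of experiment 1, and to 759 to 927 CPM and 619 to 1294 CPM in the N2 and *atfs-1(et18)* libraries of experiment 2. A list of 59 sperm genes summed to 2261, 2516 and 1193 CPM in *atfs-1(null)* and to 528, 1745 and 678 CPM in *atfs-1(et18)*. Results that rest on the deviating libraries are given with and without them.

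The *atfs-1* transcript followed the alleles. The gene (WBGene00013878, chromosome V of WBcel235, 14193685 to 14197698) was at 47.4, 41.2 and 50.9 CPM in N2 and 0.807, 0.647 and 0.617 CPM in *atfs-1(null)*, and at 73.8, 59.7 and 61.0 CPM in N2 and 84.2, 94.0 and 86.1 CPM in *atfs-1(et18)*. All *atfs-1(null)* libraries were far below their wild type, and all *atfs-1(et18)* libraries were above theirs. By edgeR's quasi-likelihood test the log2 changes were -6.06 (standard error 0.17, adjusted p = 6.3e-09) and 0.44 (standard error 0.13, adjusted p = 0.031). The call in *atfs-1(et18)* was lost in 6 fits that left out 1 library, with adjusted p-values up to 0.139. *hsp-6*, which encodes the mitochondrial HSP70 chaperone (WBGene00002010, chromosome V, 4824138 to 4826760), was at 968, 839 and 961 CPM in N2 and 396, 397 and 563 CPM in *atfs-1(null)*. In experiment 2 it was at 609, 548 and 539 CPM in N2 and 1559, 1357 and 1512 CPM in *atfs-1(et18)*. The groups did not overlap in either experiment and moved in opposite directions, by -1.03 and 1.38 on the log2 scale, and the difference between the alleles was 2.41 (standard error 0.19, adjusted p = 1.2e-05 by edgeR). The N2 libraries of the second experiment were below those of the first for this gene.

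More genes were called in *atfs-1(null)* than in *atfs-1(et18)*, each against the N2 of its own experiment. In *atfs-1(null)* worms 11239 of 16188 genes had an adjusted p under 0.05 (69.4% of genes tested), 5662 of them higher (35.0%) and 5577 lower (34.5%). In *atfs-1(et18)* worms 3074 genes passed (19.0%), 1626 higher (10%) and 1448 lower (8.94%). Mutant and N2 libraries occupied separate ranges at 11670 genes (72.1%) for *atfs-1(null)* and 6800 (42.0%) for *atfs-1(et18)*. The change itself differed between the alleles for 7925 genes (49.0%), being more positive in *atfs-1(et18)* for 4220 (26.1%) and less so for 3705 (22.9%). The plot of both changes for each gene places the classes described below.

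**Figure D1:**
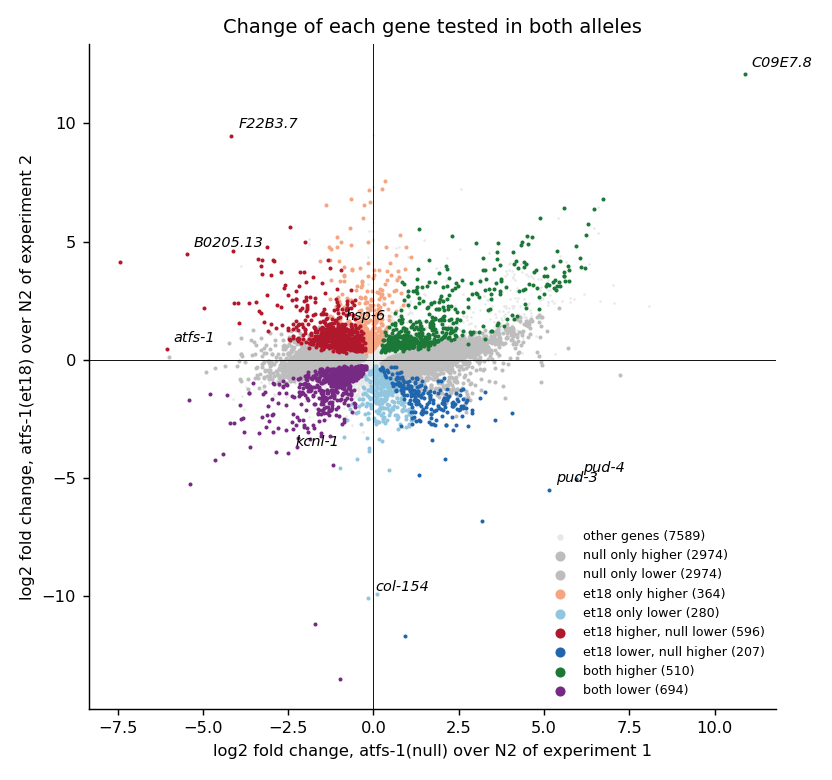
Change of every gene tested, as fitted log2 fold change in *atfs-1(null)* over the N2 of experiment 1 (x axis) and in *atfs-1(et18)* over the N2 of experiment 2 (y axis), coloured by class, with the number of genes in each class in the legend. The 803 genes of the opposite classes lie in the upper left and lower right, the 1204 genes of the same direction in the upper right and lower left, and fitted values of genes with a group near 0 counts depend on the prior count.

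Of the genes called in *atfs-1(et18)*, 2007 were also called in *atfs-1(null)*, which is 65.3% of the *atfs-1(et18)* calls and 17.9% of the *atfs-1(null)* calls. Opposite directions were not the more common outcome. The alleles moved 803 of these genes in opposite directions and 1204 in the same direction. Of the genes raised by *atfs-1(et18)*, *atfs-1(null)* lowered 36.7%, beside 34.5% for all genes tested, and raised 31.4%, beside 35.0%. Of the genes lowered by *atfs-1(et18)*, *atfs-1(null)* lowered 47.9% and raised 14.3%. The first shares were near those of all genes tested, while the second departed from them.

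The opposite classes held 596 genes that were higher in *atfs-1(et18)* and lower in *atfs-1(null)* (3.68% of genes tested), and 207 with the reverse pattern (1.28%), or 346 in the fit with a block for replicates. All 803 also had a called difference, which calls in opposite directions nearly fix in advance and which adds no evidence. In the first class the median log2 change was -1.03 with *atfs-1(null)* and 0.91 with *atfs-1(et18)*, and 183 of its genes changed at least 2-fold in both. In the second class the medians were 1.38 and -1.57, with 144 genes at least 2-fold in both. Both alleles raised 510 genes (3.15%), with medians of 1.40 and 1.07, and lowered 694 (4.29%), with medians of -0.96 and -0.69. A called difference within these same-direction classes marked 117 genes raised by both, with the larger change in *atfs-1(null)* for 79, and 166 genes lowered by both, with the larger change in *atfs-1(null)* for 144. A gene was placed with 1 allele alone where it was called there, not called in the other, and the difference was called. *atfs-1(null)* alone held 2974 higher genes (18.4%) and also 2974 lower genes (18.4%), while *atfs-1(et18)* alone held 364 higher genes (2.25%) and 280 lower genes (1.73%). Scaling by library size alone moved the median *atfs-1(null)* change of all genes from 0.0023 to 0.21 and gave 4001 higher and 2291 lower genes in *atfs-1(null)* alone.

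The sizes of these classes depended on single libraries. Without *atfs-1(null)* replicate 3 and *atfs-1(et18)* replicate 2, a choice made after the data were seen, the class higher in *atfs-1(et18)* and lower in *atfs-1(null)* grew to 1356 genes, which held 579 of the 596. The reverse class grew to 555 genes, which held 200 of the 207. The genes raised by both numbered 768, with 439 of the 510, and those lowered by both 779, with 591 of the 694. Opposite genes then outnumbered genes of the same direction, whereas with all libraries they did not. That fit kept N2 replicate 2 of experiment 2, which has the same number as the *atfs-1(et18)* library taken out. Its vitellogenins summed to 7328 CPM, against 1773 and 1314 CPM in the other N2 libraries of that experiment. The part of this unequal removal in the class sizes was not tested. Leaving out 1 library at a time, the first opposite class fell to 343, 344, 377 and 354 genes without N2 replicate 1 or 3 of experiment 2 or *atfs-1(et18)* replicate 1 or 3, and rose to 912 without *atfs-1(et18)* replicate 2. The reverse class numbered 131 without N2 replicate 1 of experiment 1, 70 and 107 without N2 replicate 1 or 3 of experiment 2, 109 and 85 without *atfs-1(et18)* replicate 1 or 3, and 390 without *atfs-1(null)* replicate 3. For the genes raised by both the counts were 332 without N2 replicate 2 of experiment 1, 176, 315 and 202 without N2 replicate 1, 2 or 3 of experiment 2, 316 without *atfs-1(et18)* replicate 2 and 910 without *atfs-1(null)* replicate 3. For the genes lowered by both they were 269 and 390 without N2 replicate 1 or 3 of experiment 2 and 322 without *atfs-1(et18)* replicate 3. *atfs-1(et18)* alone held 393 and 426 genes without N2 replicate 1 or 3 of experiment 2 and 420 without *atfs-1(et18)* replicate 3, against 644 with all libraries. Among genes of the main fit, those higher in *atfs-1(null)* alone numbered 1655 without N2 replicate 3 of experiment 1, 1945 without N2 replicate 2 of experiment 2, and 1806 and 1908 without *atfs-1(et18)* replicate 1 or 3. Those lower in *atfs-1(et18)* alone numbered 133 and 171 without N2 replicate 1 or 3 of experiment 2 and 158 without *atfs-1(et18)* replicate 3.

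**Figure D2:**
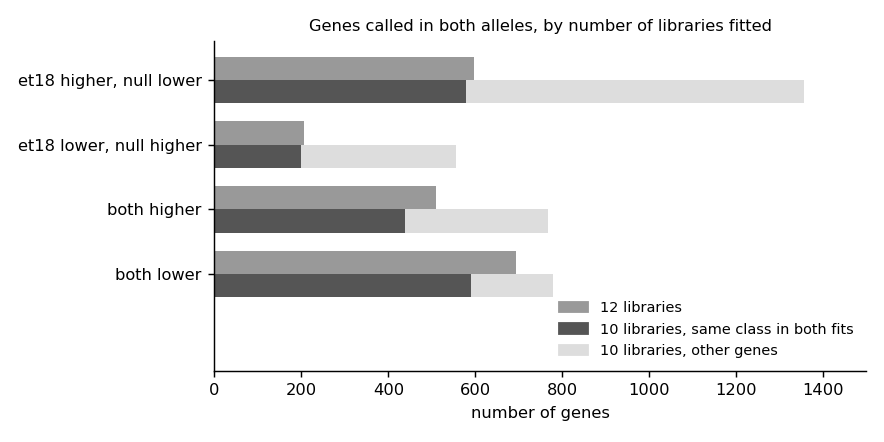
Number of genes (x axis) in the 4 classes called in both alleles, from all 12 libraries and from the 10 left after *atfs-1(null)* replicate 3 and *atfs-1(et18)* replicate 2 were taken out. The dark bars are genes in the same class in both fits, and the opposite classes grew more (596 to 1356 and 207 to 555) than the others (510 to 768 and 694 to 779).

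The likeness between the alleles depended most on *atfs-1(et18)* replicate 2. Across the 16188 genes, the changes in *atfs-1(null)* and *atfs-1(et18)* correlated at r = 0.283, a description over genes that share libraries and are not independent. Leaving out 1 library at a time, the value was 0.0077 without *atfs-1(et18)* replicate 2, 0.224 without *atfs-1(null)* replicate 3 and 0.22 without N2 replicate 1 of experiment 2, and without both deviating libraries it was -0.0496. Among genes raised by both alleles, *atfs-1(null)* replicate 3 was the most changed of its group for 80.4% and *atfs-1(et18)* replicate 2 for 70.4%. Among genes lowered by both the shares were 53.2% and 62.1%. In the class higher in *atfs-1(et18)* and lower in *atfs-1(null)* they were 19.1% and 9.06%, and over all genes tested they were 45.5% and 54.7%. Which part of the shared change belongs to these libraries was not tested beyond the fits without them. The fits without *atfs-1(et18)* replicate 2 kept the N2 library of the same number.

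Mitochondrial lists differed in how many of their genes were in the opposite class. The lists of chaperones and proteases, import, translation factors, ribosomal proteins, ubiquinone synthesis and mitochondrial DNA had negative medians in *atfs-1(null)* and positive medians in *atfs-1(et18)*, whereas those of the nuclear respiratory chain and the TCA cycle were negative in both, beside medians of 0.0023 and 0.067 over all genes tested. The lists of the mitochondrial unfolded protein response came first. All 12 mitochondrial chaperones and proteases had opposite signs in the alleles, with medians of -0.45 and 0.78, and the difference was called for 11 (49.0% of all genes). Of these, 8 were called in both alleles, a count that stayed between 6 and 9 when single libraries were left out. They were 66.7% of the list, beside 3.68% of all genes in the opposite class. All 13 tested genes of mitochondrial protein import had a called difference, with medians of -0.85 and 0.66, and 10 were in the opposite class (8 to 11 over the same fits). *tomm-70*, an import receptor of the outer membrane, was at 170.2, 135 and 167 CPM in N2 and 59.6, 63 and 88.0 CPM in *atfs-1(null)*, and at 95.6, 85.7 and 91.8 CPM in N2 and 246, 193 and 221 CPM in *atfs-1(et18)*. Neither pair of groups overlapped, and the difference was 2.44 on the log2 scale (standard error 0.22, adjusted p = 2.8e-05 from edgeR). *mppa-1*, counted with the proteases, is a subunit of the peptidase that removes targeting sequences after import and differed by 2.31 (0.18), although 271 of its 1662 exon bases overlap another gene and its reads cannot all be assigned.

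The machinery that makes mitochondrial proteins was not uniform. Of 8 mitochondrial translation factors, 5 had a called difference and 4 were in the opposite class in every fit that left out 1 library, with medians of -0.31 and 0.85, and a further 2 were raised by both alleles. *tsfm-1*, an elongation factor, was at 120.1, 104 and 125 CPM in N2 and 39.3, 39.7 and 54 CPM in *atfs-1(null)*. In experiment 2 it was at 78.6, 67.1 and 71.0 CPM in N2 and 265, 200.4 and 249.9 CPM in *atfs-1(et18)*. Its 4 groups occupied separate ranges, and its difference of 3.12 (standard error 0.22, adjusted p = 4.7e-06 from edgeR) was the largest among these factors. The 69 mitochondrial ribosomal protein genes had medians of -0.53 and 0.27 and opposite signs for 67. The difference was called for 61 (88.4%, beside 49.0% of all genes). Of the 69, 55 were lower in *atfs-1(null)*, beside 34.5% of all genes, whereas 16 were higher in *atfs-1(et18)*, beside 10%. The 12 of them called in both alleles became 2 without N2 replicate 2 of experiment 2, 30 without *atfs-1(null)* replicate 3 and 49 without both deviating libraries. *mrps-14*, a small subunit protein, changed by -0.76 and 0.99 (standard error 0.11 each). The 11 mitochondrial aminoacyl-tRNA synthetase genes, which charge tRNAs in the organelle, had medians of -0.04 and 0.39. The first of these medians was 0.15 under scaling by library size alone. A difference was called for 6 of the 11 (54.5%), near the 49.0% of all genes. Without both deviating libraries it was called for 10, beside 10959 of 16172 genes. *nars-2* was at 29.7, 25.9 and 30.6 CPM in N2 and 26.3, 28.9 and 43.2 CPM in *atfs-1(null)*, where the groups overlapped, and it rose from 26.4, 27 and 27.1 CPM to 56.9, 53.0 and 56.0 CPM in *atfs-1(et18)*.

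Respiratory genes are encoded in the mitochondrial and the nuclear genome. The 12 protein-coding genes of mitochondrial DNA all had opposite signs and a called difference, also in every fit that left out 1 library, with medians of -0.79 and 0.47. Of these, 10 were called in both alleles, or 3 without N2 replicate 1 of experiment 2. *ND1*, a complex I subunit, was at 934, 869 and 861 CPM in N2 and 552, 496 and 501 CPM in *atfs-1(null)*, then at 761, 704 and 699 CPM in N2 and 1171, 966 and 1027 CPM in *atfs-1(et18)*. Mitochondrial genes made up 1.69% to 1.89% of counts in N2 and 1.14% to 1.46% in *atfs-1(null)*, and 1.55% to 1.63% in N2 and 1.79% to 2.05% in *atfs-1(et18)*, so the groups did not overlap in either experiment. The 69 nuclear genes of the respiratory chain and ATP synthase were lowered in *atfs-1(null)* (61 of 69, beside 34.5% of all genes, median -0.78), but their median in *atfs-1(et18)* was -0.03. The difference was called for 66 (95.7%, beside 49.0%). Lower in *atfs-1(null)* alone were 55 (79.7%, beside 18.4%), or 52 to 59 when single libraries were left out. In the opposite class were 3 of them (4.35%, near the 3.68% of all genes), or 1 without N2 replicate 1 of experiment 1 and 7 without both deviating libraries. Among the 3 was *cox-15*, an enzyme of haem A synthesis, which changed by -0.58 and 0.84 (standard error 0.11 each). The 20 genes of the TCA and glyoxylate cycle had medians of -0.74 and -0.09, with 13 lower in *atfs-1(null)* alone. The 8 genes of ubiquinone biosynthesis instead had medians of -0.43 and 0.62 and a called difference for all, or for 6 in the fit with the lowest count. *coq-1*, which makes the isoprenoid tail of ubiquinone, was at 85.6, 69.4 and 81.1 CPM in N2 and 33.8, 32.1 and 38.8 CPM in *atfs-1(null)*, and at 56.5, 56.3 and 54.5 CPM in N2 and 152, 138 and 149.5 CPM in *atfs-1(et18)*, with no overlap in either experiment.

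**Figure D3:**
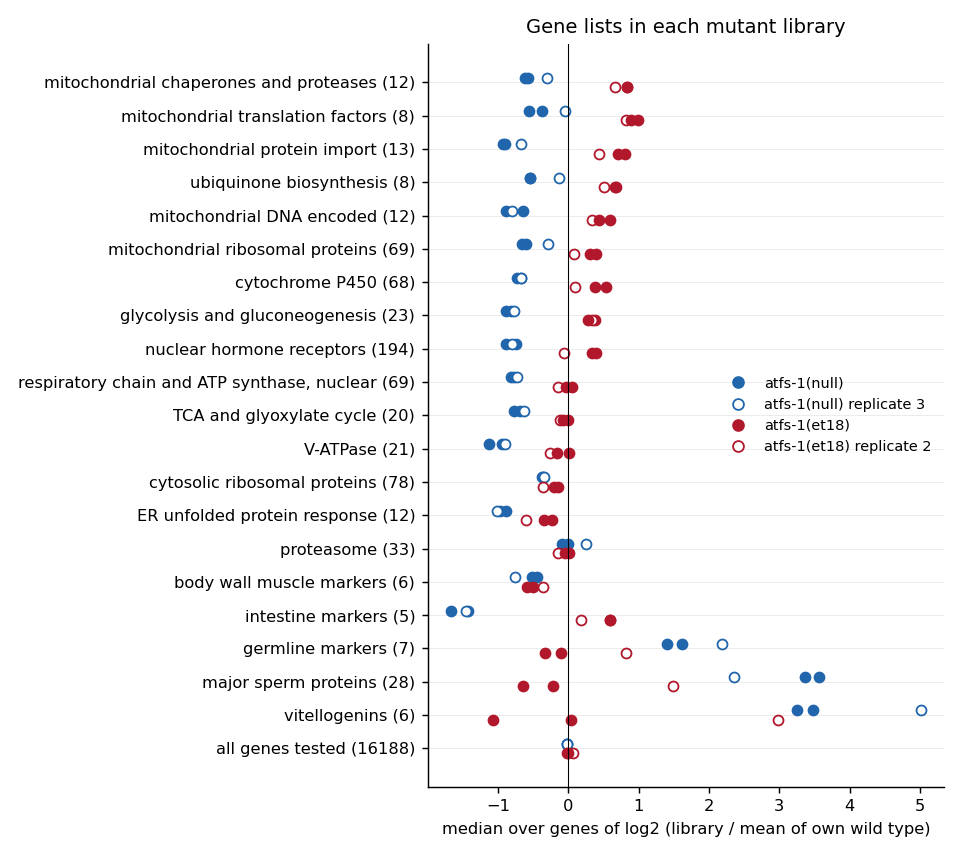
Median over the genes of each list (number of genes in brackets) of the log2 ratio of a mutant library to the mean of its own N2, with *atfs-1(null)* libraries in blue and *atfs-1(et18)* libraries in red, and open symbols for *atfs-1(null)* replicate 3 and *atfs-1(et18)* replicate 2. Mitochondrial chaperones, translation factors, import, ubiquinone, mitochondrial DNA encoded genes and ribosomal proteins lie on opposite sides of 0 in all 6 libraries, while nuclear respiratory chain, TCA cycle and V-ATPase genes lie below 0 in *atfs-1(null)* and near 0 in *atfs-1(et18)*.

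Glycolysis was divided. Of 23 genes of glycolysis and gluconeogenesis, 20 had a called difference (87.0%, beside 49.0% of all genes), with medians of -0.85 and 0.37. In the opposite class were 8 (34.8%, beside 3.68%), or 6 to 9 when single libraries were left out. Signs were opposite for 13 of the 23, and 8 were lower in *atfs-1(null)* alone (34.8%, beside 18.4%). Higher in *atfs-1(null)* were 5, beside 35.0% of all genes, 1 of them raised by both. *aldo-1*, an aldolase, was at 259, 254 and 271 CPM in N2 and 144, 131 and 114 CPM in *atfs-1(null)*, and at 251, 229 and 229 CPM in N2 and 544, 581 and 589 CPM in *atfs-1(et18)*. Here the N2 libraries of the experiments lay close together and the mutants fell on either side of them. *ldh-1*, the lactate dehydrogenase, changed by -1.31 and 0.78 (standard error 0.11 each). *gpd-2*, a glyceraldehyde-3-phosphate dehydrogenase with a near-identical copy that may share its reads, changed by -1.68 and 0.82 (0.13 each). Among superoxide dismutases, catalases and peroxiredoxins all 10 had a called difference (7 in the fit with the lowest count), but 7 were lower in *atfs-1(null)* alone. *prdx-3*, the mitochondrial peroxiredoxin, changed in both, by -0.62 and 0.47 (0.09 each).

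The genes of this class whose libraries did not overlap in either experiment were ranked by the smaller of their changes. The 6 leading ones were 2 cytochrome P450 genes, a C-type lectin gene and 3 genes known by sequence name alone. P450 enzymes oxidise lipids and foreign compounds. *cyp-33C8*, one of the P450 genes (WBGene00019967, chromosome V, 3800776 to 3803454), was at 40.8, 15 and 31.2 CPM in N2 and 3.65, 2.12 and 2.56 CPM in *atfs-1(null)*. In experiment 2 it was at 15, 17.6 and 16.5 CPM in N2 and 303, 267 and 368 CPM in *atfs-1(et18)*. The difference was 7.64 on the log2 scale (standard error 0.47, adjusted p = 2.0e-06 from edgeR). That its groups did not overlap was a condition of the ranking, which also favours large differences. *B0205.13* was at 25.9, 7.05 and 12.4 CPM in N2 against 0.448, 0.265 and 0.292 CPM in *atfs-1(null)*, and at 9.06, 9.91 and 8.65 CPM in N2 against 206, 170.3 and 232 CPM in *atfs-1(et18)*. Its changes of -5.48 and 4.46 spanned 9.94 on the log2 scale. *cyp-13A12*, a P450 too, changed by -3.28 and 3.63, and *clec-17*, a C-type lectin, by -3.26 and 4.21. *F22B3.7* had at most 5 counts in any N2 library of experiment 2 and at most 1 in *atfs-1(null)*, but 57.5, 65.4 and 61.8 CPM in *atfs-1(et18)*. Its N2 libraries of experiment 1 were uneven, at 0.578, 0.0373 and 0.107 CPM, and the call in *atfs-1(null)* was lost without N2 replicate 1 of that experiment (adjusted p = 0.063). *Y71G12B.18* was more uneven still, at 0.243, 10.4 and 7.39 CPM and 4.94, 0.497 and 0.194 CPM in the N2 groups, and its call in *atfs-1(et18)*, where it was at 54.7, 20.8 and 25.5 CPM, was lost in 4 fits without a library (adjusted p between 0.058 and 0.094).

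Of 68 tested members of the P450 family (74 in the table), 49 had a called difference and 16 were in the opposite class (11 to 17 when single libraries were left out), which is 23.5% beside 3.68% of all genes, with medians of -0.73 and 0.49. A further 15 (22.1%, beside 18.4% of all genes) were lower in *atfs-1(null)* alone. UDP-glucuronosyltransferases, which conjugate sugars to lipophilic compounds, were divided. In the opposite class were 7 of 66 (10.6%, beside 3.68%), and 15 (22.7%, beside 18.4%) were lower in *atfs-1(null)* alone. Both alleles raised 5 (7.58%, beside 3.15%) and lowered 5 (7.58%, beside 4.29%). The counts for both alleles moving together were 3 and 2 without N2 replicate 1 of experiment 2. *ugt-62* was at 392, 195 and 257 CPM in N2 and 51.8, 51.6 and 44.0 CPM in *atfs-1(null)*, and at 176, 149.8 and 177 CPM in N2 and 1064, 1122 and 1204 CPM in *atfs-1(et18)*. This gene was far outside its N2 range in each mutant, in opposite directions. Nuclear hormone receptors, the large family of ligand-regulated transcription factors, had medians of -0.83 and 0.24 over 194 tested members. The difference was called for 131 (67.5%, beside 49.0% of all genes). In *atfs-1(null)* 138 were lower, beside 34.5% of all genes, and in *atfs-1(et18)* 31 were higher, beside 10%. In the opposite class were 27 (13.9%, beside 3.68%), or 15 without N2 replicate 1 of experiment 2, 49 without *atfs-1(et18)* replicate 2 and 65 without both deviating libraries. *nhr-115* changed by -1.96 and 2.33 (standard error 0.24 each) and shares 197 exon bases with another gene, and *nhr-193* changed by -1.71 and 2.45 (0.22 each). The 5 intestine markers had medians of -1.56 and 0.50, all with a called difference in every fit that left out 1 library, and summed to 4226 to 5668 CPM in N2 and 1319 to 1514 CPM in *atfs-1(null)*, against 2375 to 2851 CPM and 2475 to 3114 CPM in experiment 2. The part of intestinal RNA content in these lists was not tested.

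**Figure D4:**
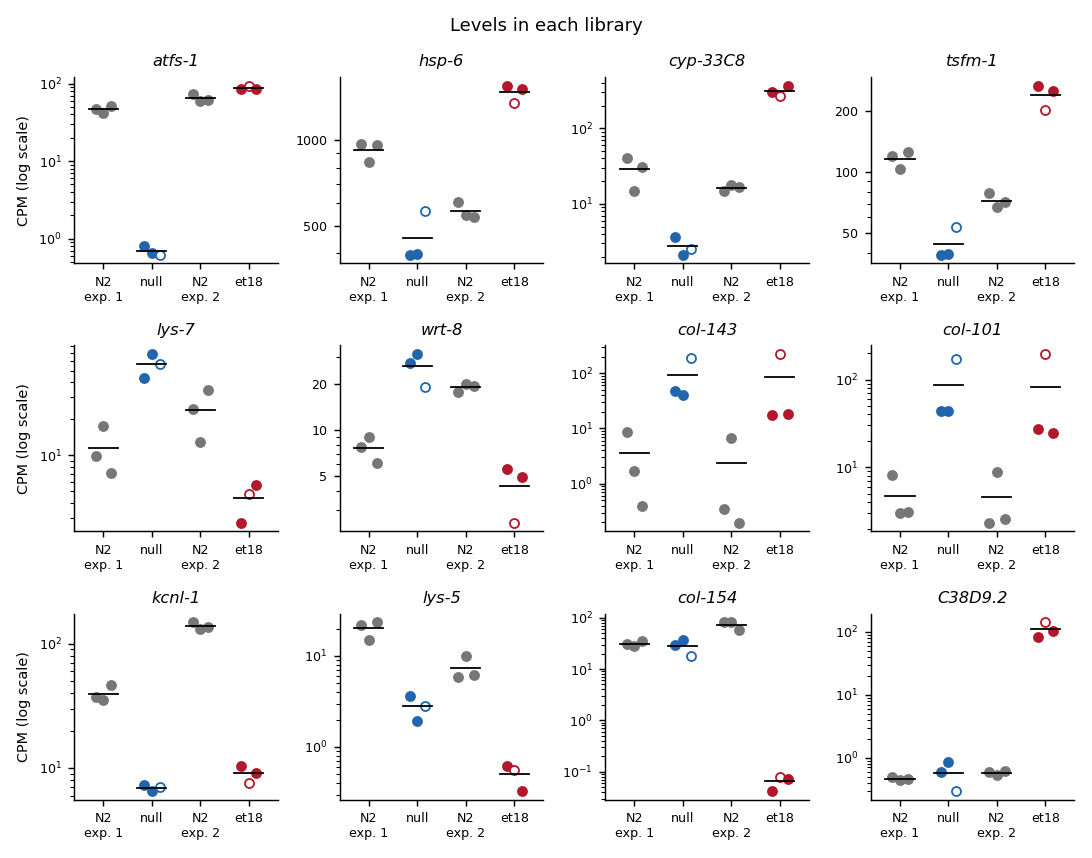
Level of 12 genes in every library (CPM, log axis with its own range in each panel), grouped as N2 of experiment 1, *atfs-1(null)*, N2 of experiment 2 and *atfs-1(et18)*, with bars at the group means and open symbols for *atfs-1(null)* replicate 3 and *atfs-1(et18)* replicate 2. *hsp-6*, *cyp-33C8* and *tsfm-1* lie below N2 in *atfs-1(null)* and above it in *atfs-1(et18)*, *lys-7* and *wrt-8* do the reverse, and for *col-143* and *col-101* the open symbols are the highest of their groups.

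The reverse class, lower in *atfs-1(et18)* and higher in *atfs-1(null)*, was led by a pair of neighbouring *pud* genes, named for proteins that rise in worms with reduced insulin signalling. *pud-3* (WBGene00017501, chromosome V, 2324510 to 2326847) was at 1.09, 1.01 and 0.750 CPM in N2 and 35.7, 36.2 and 29.1 CPM in *atfs-1(null)*, and at 5.56, 4.58 and 2.66 CPM in N2 with only 3, 2 and 2 counts in *atfs-1(et18)*. *pud-4* (WBGene00017498, chromosome V, 2326678 to 2327262) was at 0.304, 0.373 and 0.286 CPM in N2 and 20.4, 23.0 and 16.1 CPM in *atfs-1(null)*, and at 2.37, 1.88 and 1.33 CPM in N2 with 2, 2 and 0 counts in *atfs-1(et18)*. Both therefore went from a low level in N2 to a high level without ATFS-1 and to near the counting limit with the active allele (adjusted p for the difference 2.9e-07 and 8.1e-07 from edgeR). They share 135 exon bases, so reads in that stretch could belong to either. *lys-7*, a lysozyme of the intestine, was at 9.79, 17.5 and 7.14 CPM in N2 and 43.4, 68.9 and 56.9 CPM in *atfs-1(null)*, and at 24.2, 12.7 and 34.3 CPM in N2 and 2.74, 4.80 and 5.65 CPM in *atfs-1(et18)*. *wrt-8*, a hedgehog-related protein, changed by 1.77 and -2.15 (standard error 0.28 and 0.29). Of 69 tested hedgehog-related genes 5 were in this class, or 2 without N2 replicate 1 of experiment 2, and among symbol stems with at least 10 tested genes the largest shares were those of *idpp-* (5 of 16 genes, 31.2%) and *nas-*, the astacin proteases (7 of 31, 22.6%), beside 1.28% of all genes. *idpp-3* was at 1.19, 1.38 and 0.179 CPM in N2 and 5.92, 7.29 and 1.69 CPM in *atfs-1(null)*, and it went from 6.21, 3.55 and 5.74 CPM to 0.457, 1.07 and 0.724 CPM in *atfs-1(et18)*. *C26B2.8* (2.90 and -2.25) and *E01G6.1* (2.52 and -2.13) had the same pattern. In *atfs-1(et18)* the calls for *idpp-3* and *C26B2.8* were lost without its replicate 3 (adjusted p = 0.054 and 0.056).

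The opposite classes were picked by changes that contain the N2 levels of both experiments. Where N2 and the mutants stood in them is therefore partly fixed by that choice and is given as a description. For 205 of the 207 genes of the reverse class (99.0%) the mean N2 level was higher in experiment 2 than in experiment 1. The median N2 difference was 1.59 on the log2 scale, while *atfs-1(et18)* lay below *atfs-1(null)* by a median of 1.22 and did so for 203 genes. In the other opposite class N2 was higher in experiment 2 for 46 of 596 genes (7.72%), with a median difference of -0.49, and *atfs-1(et18)* lay above *atfs-1(null)* for 595. In the classes of the same direction the median N2 difference was 0.06 for genes raised and -0.09 for genes lowered. Where mutant levels lie between N2 levels that are apart, the changes have opposite signs, and here the experiment and the allele cannot be told apart. *aldo-1*, above, is a gene with N2 levels close together, and *E01G6.1*, at 9.70, 12.5 and 5.25 CPM in the N2 of experiment 1 and 74.7, 50.6 and 54.4 CPM in that of experiment 2, is one where they are far apart.

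Genes raised by both alleles included a gene near absent in wild type. *C09E7.8* (WBGene00015642, chromosome III, 6553575 to 6558575) had 0, 0 and 1 counts in the N2 of experiment 1 and 0 counts in every N2 library of experiment 2, against 24.2, 27.5 and 36.2 CPM in *atfs-1(null)* and 14.9, 23.2 and 15.8 CPM in *atfs-1(et18)*. In *atfs-1(et18)* it was at least 189.5-fold higher, with a floor of 3 counts per N2 library. The other leading genes followed the deviating libraries. *col-143*, a cuticle collagen, was at 8.52, 1.72 and 0.393 CPM in N2 and 48.1, 41.0 and 185 CPM in *atfs-1(null)*, and at 0.351, 6.68 and 0.194 CPM in N2 and 17.7, 224 and 18.4 CPM in *atfs-1(et18)*. *col-101* was at 8.09, 3.06 and 3.07 CPM and 44.2, 43.3 and 170.4 CPM in experiment 1, and at 2.32, 8.84 and 2.56 CPM and 27.2, 196 and 24.3 CPM in experiment 2. For both collagens *atfs-1(null)* replicate 3 and *atfs-1(et18)* replicate 2 were the highest of their groups, as was N2 replicate 2 of experiment 2. *col-95*, *ule-1* and *R04D3.3* had the same order of libraries in both mutants, at 2.87, 2.23 and 11.6 CPM and 3.49, 22.1 and 2.68 CPM for *col-95*, 7.80, 6.58 and 28.3 CPM and 3.99, 31.9 and 3.15 CPM for *ule-1*, and 21.7, 25.7 and 62 CPM and 1.66, 14 and 2.10 CPM for *R04D3.3*. Without *atfs-1(et18)* replicate 2 the change in *atfs-1(et18)* no longer passed for *col-143*, *ule-1* and *R04D3.3* (adjusted p = 0.131, 0.067 and 0.091). Without N2 replicate 1 or 3 of experiment 2 these 3 genes and *col-101* did not pass there either, with adjusted p-values between 0.059 and 0.132. Without N2 replicate 2 of experiment 1 or *atfs-1(null)* replicate 3 the change of *col-143* in *atfs-1(null)* did not pass (adjusted p = 0.052 each). F-box genes, which encode substrate receptors of ubiquitin ligases, contributed 13 of 149 tested members to this class (8.72%, beside 3.15% of all genes). That count was 10 to 16 when single libraries were left out. An equal 13 were in the class higher in *atfs-1(et18)* and lower in *atfs-1(null)* (8.72%, beside 3.68%). There the F-box count was 3 without N2 replicate 1 of experiment 2, 22 without *atfs-1(et18)* replicate 2 and 23 without both deviating libraries.

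Among genes lowered by both alleles, *kcnl-1*, which encodes a calcium-activated potassium channel subunit (WBGene00007176, chromosome V, 19565386 to 19606120), was at 37.5, 35.0 and 46.5 CPM in N2 and 7.35, 6.50 and 7.04 CPM in *atfs-1(null)*, and at 149, 129.9 and 136 CPM in N2 and 10.4, 7.53 and 9.13 CPM in *atfs-1(et18)*. The N2 levels differed more between the experiments than the mutant levels did, and its difference of -1.43 was called (standard error 0.20, adjusted p = 0.00037 from edgeR). *lys-5* and *lys-6*, neighbouring lysozyme genes on chromosome IV, fell in both. *lys-5* was at 21.8, 15.1 and 23.6 CPM in N2 and 3.65, 1.94 and 2.79 CPM in *atfs-1(null)*, and at 5.93, 10 and 6.22 CPM in N2 and 0.623, 0.555 and 0.326 CPM in *atfs-1(et18)*. *lys-6* changed by -2.55 and -2.97 (standard error 0.28 and 0.29). Of 13 tested lysozyme genes 4 were lowered by both (30.8%, beside 4.29% of all genes), also in every fit that left out 1 library. A further 4 were higher in *atfs-1(et18)* alone (30.8%, beside 2.25%), or 2 without N2 replicate 3 of experiment 2. *lys-7* was in the opposite class. *fbxa-52*, an F-box gene, was at 6.05, 6.26 and 5.54 CPM in N2 and 0.448, 0.176 and 0.0649 CPM in *atfs-1(null)*, and at 7.20, 4.62 and 8.52 CPM in N2 and 0.374, 0.198 and 0.507 CPM in *atfs-1(et18)*. *T25G12.11* changed by -2.98 and -2.32. *Y37E3.30* changed by -4.21 and -2.66, and 21 of its 384 exon bases overlap another gene.

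Lists of protein folding in the secretory pathway, cytosolic ribosomes and muscle were among those with negative medians in both alleles. So were marker lists of neurons (-0.69 and -0.30), epidermis (-0.68 and -0.70) and pharynx (-0.28 and -1.58). The 12 genes of the ER unfolded protein response had medians of -0.98 and -0.42. Of them 7 were lowered by both, or 3 without N2 replicate 1 of experiment 2, and 2 were higher in *atfs-1(null)* alone. *hsp-3*, an ER HSP70 chaperone, was at 2431, 2508 and 2841 CPM in N2 and 922, 799.5 and 828 CPM in *atfs-1(null)*, and at 1727, 1584 and 1564 CPM in N2 and 1286, 949 and 1154 CPM in *atfs-1(et18)*. It fell further in *atfs-1(null)*, by 1.09 on the log2 scale (standard error 0.16, adjusted p = 0.00044 from edgeR), and the groups overlapped in neither experiment. *pdi-6*, a protein disulfide isomerase, changed by -1.75 and -0.74 (standard error 0.14 and 0.13). The ER chaperone gene thus fell in the strain where the mitochondrial chaperone gene *hsp-6* rose. The 78 cytosolic ribosomal protein genes had medians of -0.37 and -0.24, and scaling by library size alone moved the first median to -0.15. Of them 71 were lower in *atfs-1(null)*, beside 34.5% of all genes, and 26 were lower in *atfs-1(et18)*, beside 8.94%. Both alleles lowered 24 (30.8%, beside 4.29%), or 5 without N2 replicate 1 of experiment 2 and 7 without both deviating libraries. The difference was called for 18 of the 78 (23.1%, beside 49.0%), or 8 without N2 replicate 3 of experiment 1. All but 6 of the 33 proteasome genes had no call in either allele, with medians of 0.06 and -0.07, and the first median was 0.27 under scaling by library size alone. Of 6 body wall muscle markers 3 were lowered by both (3 or 4 in fits without a library), among them the tropomyosin gene *lev-11*, at 1998, 2117 and 2305 CPM in N2 and 1380.0, 1361 and 1152 CPM in *atfs-1(null)*, and at 2359, 2306 and 2089 CPM in N2 and 1642, 1754 and 1548 CPM in *atfs-1(et18)*.

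Many transcripts of the germline rose in *atfs-1(null)*, with part of them called there alone. Of 59 sperm genes 53 were higher in *atfs-1(null)*, beside 35.0% of all genes. Of these, 39 were higher in *atfs-1(null)* alone (66.1% of the list, beside 18.4% of all genes) and 14 had no called difference. When single libraries were left out the 39 ranged from 16 to 55, and were at most 25 without replicate 1 or 2 of *atfs-1(null)*, replicate 1 or 3 of *atfs-1(et18)*, N2 replicate 3 of experiment 1 or N2 replicate 2 or 3 of experiment 2. All 28 tested major sperm protein genes, which form the cytoskeleton of nematode sperm, were higher in *atfs-1(null)* alone, with medians of 3.13 in *atfs-1(null)* worms and 0.47 in *atfs-1(et18)* worms, and the count was 14 without *atfs-1(et18)* replicate 3, 17 without N2 replicate 3 of experiment 1 and 18 without *atfs-1(null)* replicate 2. They are a family of near-identical copies whose reads may be shared. *msp-65* was at 1.46, 1.19 and 0.536 CPM in N2 and 14.9, 18.2 and 8.37 CPM in *atfs-1(null)*, and at 1.62, 4.55 and 4.34 CPM in N2 and 2.66, 9.44 and 3.12 CPM in *atfs-1(et18)*. The *atfs-1(et18)* libraries of this gene overlapped those of N2, with replicate 2 the highest. All 7 germline markers were in this class (5 to 7 when single libraries were left out). Of 32 Argonaute and P granule genes 24 were higher in *atfs-1(null)*, beside 35.0% of all genes, and 4 were lower. Of the 24, 2 were raised by both, 7 had no called difference and 15 were higher in *atfs-1(null)* alone (46.9% of the list, beside 18.4%). *hrde-1*, a nuclear Argonaute of germline RNA silencing in this class, was at 103, 108 and 59.0 CPM in N2 and 433, 508 and 825 CPM in *atfs-1(null)*. In experiment 2 *hrde-1* was at 123, 156 and 141 CPM in N2 and 124, 323 and 149 CPM in *atfs-1(et18)*. *oma-2*, an oocyte maturation factor, was at 17.4, 11.6 and 6.57 CPM in N2 and 174, 204 and 449.7 CPM in *atfs-1(null)*, and at 14.6, 26.4 and 19.1 CPM in N2 and 16.5, 77.7 and 22.4 CPM in *atfs-1(et18)*. The 6 vitellogenin genes were all higher in *atfs-1(null)*, with a median of 3.94. Their median in *atfs-1(et18)* was 1.19, and the difference was called for 0 of them with edgeR. Against the mean of all N2 libraries of experiment 2, the *atfs-1(et18)* medians per library were 0.03, 2.98 and -1.07. By replicate number, however, these genes summed to 5254, 21299 and 3215 CPM in *atfs-1(et18)* against 1773, 7328 and 1314 CPM in N2. The sum was thus higher in *atfs-1(et18)* at every number. The difference between the alleles was called for all 6 without *atfs-1(et18)* replicate 2, as it was in the fit with a block for replicates. Whether worms of the groups were at the same stage was not tested. *R09E10.13*, *dach-1*, *pqn-63* and *nas-22* had the largest differences among genes higher in *atfs-1(null)* alone. For each of the 4 the N2 of experiment 2 was well above the N2 of experiment 1, as for *R09E10.13*, at 0.0304, 0 and 0.143 CPM against 4.26, 2.20 and 2.88 CPM.

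Genes lower in *atfs-1(null)* alone came from many lists. Among them were 90 of 194 nuclear hormone receptors (46.4%) and 42 of 69 mitochondrial ribosomal protein genes (60.9%), beside 18.4% of all genes. The shares of F-box genes (33 of 149, 22.1%) and C-type lectins (25 of 122, 20.5%) were near that of all genes. Of 21 genes of the V-ATPase, the proton pump of lysosomes and other acidic organelles, 17 were in this class in every fit that left out 1 library, with medians of -0.98 and -0.13. *vha-6*, its intestinal subunit, was at 884, 853 and 931 CPM in N2 and 399, 329 and 370.3 CPM in *atfs-1(null)*, while in experiment 2 the N2 (492, 476 and 446 CPM) and *atfs-1(et18)* (488, 415 and 412 CPM) libraries overlapped. By symbol stem the class held 9 of 10 *ech-* genes of fatty acid oxidation and 9 of 12 *alh-* aldehyde dehydrogenases. It also held 9 of 12 *lec-* genes and 8 of 11 *prx-* genes of peroxisome assembly, beside 18.4% of all genes. *asp-12*, an aspartyl protease, was at 65.2, 44.9 and 62.5 CPM in N2 and 7.50, 4.73 and 5.45 CPM in *atfs-1(null)*, and at 179, 190.1 and 468 CPM in N2 and 466, 224 and 904 CPM in *atfs-1(et18)*. *col-176*, a collagen, was at 165, 175 and 197 CPM and 18.7, 16.4 and 9.77 CPM in experiment 1, and at 234, 154 and 246 CPM and 473, 176 and 489 CPM in experiment 2. For both, the libraries of the second experiment overlapped, and a change in *atfs-1(et18)* was not called. *mltn-5* changed by -3.88 (standard error 0.49). *BE0003N10.6* differed from the others in that N2 replicate 1 of experiment 1, at 1.31 CPM, was far below the remaining pair at 16.7 and 16.5 CPM and only just above the *atfs-1(null)* libraries at 1.02, 1.03 and 1.01 CPM.

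Of the genes called in *atfs-1(et18)* alone, *C38D9.2* (WBGene00008010, chromosome V, 17567513 to 17571603) was at 0.487, 0.448 and 0.464 CPM in N2 and 0.598, 0.852 and 0.292 CPM in *atfs-1(null)*, which overlapped, and at 0.594, 0.533 and 0.616 CPM in N2 and 81.7, 143 and 103 CPM in *atfs-1(et18)*. It was thus at one low level in 9 libraries and far above it in 3. Its change of 7.54 in *atfs-1(et18)* had a standard error of 0.34 (adjusted p = 2.0e-07 from edgeR). *F15D4.5* was at 4.35, 3.80 and 3.11 CPM and 4.42, 4.73 and 4.38 CPM in experiment 1, and went from 0.890, 0.462 and 1.13 CPM to 102, 148 and 125 CPM in *atfs-1(et18)*. *F55B11.6* and *ZK177.9* had at most 7 counts in each library of the other 3 groups and were at 5.65, 13.7 and 8.04 CPM and 11.9, 20.9 and 14.2 CPM in *atfs-1(et18)*. In the other direction 2 neighbouring collagen genes were almost silent. *col-154* (WBGene00000727, chromosome V, 11385360 to 11386381) was at 30.1, 28.7 and 35.2 CPM in N2 and 29.3, 37.5 and 17.6 CPM in *atfs-1(null)*, and at 82.2, 80.7 and 58.0 CPM in N2, but it had 1, 2 and 2 counts in the *atfs-1(et18)* libraries (adjusted p = 1.3e-07 from edgeR). *col-155* (WBGene00000728, chromosome V, 11388890 to 11389875) was at 27.9, 29.6 and 31.1 CPM in N2 and 28.7, 37.3 and 29.2 CPM in *atfs-1(null)*, and at 108, 113 and 87.1 CPM in N2 with 2, 2 and 4 counts in *atfs-1(et18)*. Of 127 tested *col-* genes, 4 (3.15%, beside 1.73% of all genes) were lower in *atfs-1(et18)* alone, or 2 without N2 replicate 1 of experiment 2. *acdh-2*, an acyl-CoA dehydrogenase, fell from 202, 164 and 114 CPM to 25.5, 13.6 and 8.22 CPM in *atfs-1(et18)*, while experiment 1 overlapped at 39.2, 54 and 68.3 CPM and 67.5, 54.6 and 57.6 CPM. *C09B8.4* (-3.42, standard error 0.37) and *oac-10* (-2.80, 0.59) fell as well.

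Chromosome X held 14.1% of genes tested. It held 24.7% of genes lower in *atfs-1(null)* alone, 24.6% of genes lowered by both, 24.3% of genes lower in *atfs-1(et18)* alone and 22.2% of the class lower in *atfs-1(et18)* and higher in *atfs-1(null)*. It held 12.8% of the other opposite class, 8.63% of genes raised by both, 8.24% of genes higher in *atfs-1(et18)* alone and 3.46% of genes higher in *atfs-1(null)* alone. Of 2286 genes on X, 56.6% were lower and 13.8% higher in *atfs-1(null)*, beside 34.5% and 35.0% of all genes, and 14.4% were lower and 7.13% higher in *atfs-1(et18)*, beside 8.94% and 10%. Genes of the X chromosome are known to be largely silent in the germline of the worm, and germline transcripts rose in *atfs-1(null)*, by the values above. Their part in these shares was not tested. Chromosome V, with 20.5% of genes tested, held 30.2% of the class higher in *atfs-1(et18)* and lower in *atfs-1(null)* and 30.8% of genes higher in *atfs-1(et18)* alone.

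**Figure D5:**
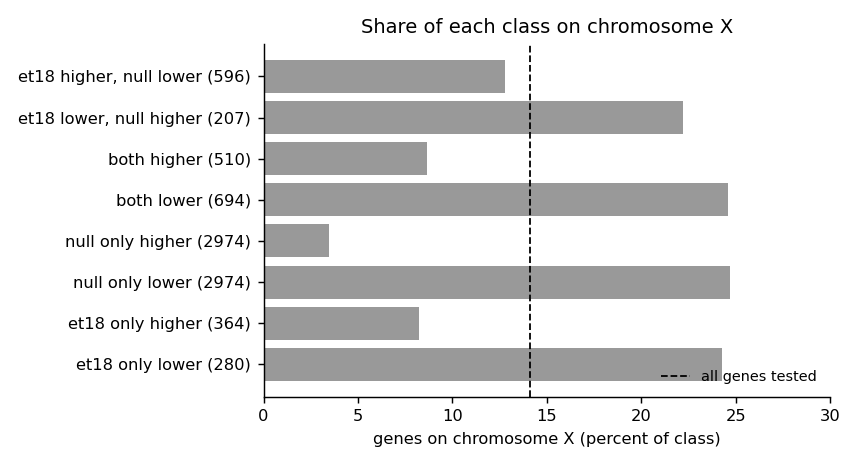
Share of each class on chromosome X (x axis, percent of the class, with the number of genes in brackets), with a dashed line at the 14.1% of all genes tested. The classes lower in *atfs-1(null)*, in both or in *atfs-1(et18)* alone lie between 24.3% and 24.7%, and genes higher in *atfs-1(null)* alone at 3.46%.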

How the data were processed

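RNA of whole L4 worms was sequenced as single reads of 50 bases in 12 libraries, 3 in each of 4 groups, taken from the sample labels. The authors deposited raw counts of reads per gene. The submitters' processing notes name STAR 2.5.3a, featureCounts, Subread 1.5.2, edgeR 3.10.0 and WBcel235. The annotation release, strand setting and treatment of reads with several matches are not given in the sources used here, so values of overlapping and near-identical genes are uncertain. Symbols came from an annotation table, and 12 mitochondrial genes were named by coordinates. No genome, promoter or protein sequence was used.

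Counts were fitted with edgeR 4.0.16 in R 4.3.3 (TMM scaling, filterByExpr with a minimum count of 10 and a total of 15, quasi-likelihood test, limma 3.58.1 loaded with it), as 4 groups in 1 model. The contrasts were each mutant minus its own N2, and the difference between these, with Benjamini-Hochberg adjustment over 16188 genes at 0.05. The common biological coefficient of variation was 0.239. Log2 levels used a prior count of 2. The floor for absent transcripts was 3 counts per library and covers counting error only. Counts of replicates differed by more than sampling noise in every pair. The fit was tested on simulated counts. DESeq2 1.42.0, other scalings, filters and thresholds, separate fits, robust dispersion, a block for the replicate number and the removal of libraries were alternatives. Python 3.11.15, numpy 2.4.6, pandas 2.3.3 and matplotlib 3.10.9 were used for summaries.

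Deviations of same-numbered libraries from their group means, across genes, correlated at 0.521, 0.438 and 0.104 in experiment 2, where the numbers were taken to pair the libraries from the data, and at -0.0409, 0.438 and 0.26 in experiment 1, where they were not. The fit with the block used the numbers of both experiments.

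The members, lists and tests were chosen with earlier results of these data known. Named genes were *atfs-1*, *hsp-6*, up to 6 genes per class called in both alleles by the smaller of their changes and 4 per class of 1 allele by the difference (protein-coding, average log2 CPM of at least 1, no overlap of libraries), and, per list, up to 4 opposite members or 3 others by the difference. The text gives part of those.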

Additional observations from a re-analysis of the deposited data

Results flagged for a closer look

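For 7925 of 16188 genes the change relative to N2 was not the same in both alleles, by edgeR's quasi-likelihood test of the difference. Each allele was sequenced in its own experiment.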

How the results depend on the processing

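Class sizes moved with the threshold and the libraries, and no called change of a named gene in the text reversed in any alternative run. At an adjusted p under 0.01 the difference between the alleles was called for 4359 genes, the class higher in *atfs-1(et18)* and lower in *atfs-1(null)* held 276 genes, the reverse class 35, the genes raised and lowered by both 144 and 207, and those of *atfs-1(null)* or *atfs-1(et18)* alone 3397 and 343. Without a filter on low counts the first opposite class held 377 genes and the genes lowered by both 451, where the cause was not tested. The genes raised by both numbered 828 with scaling by library size alone and 329 among genes with 10 counts in all libraries, and those lowered by both 393 with a minimum of 1.5-fold. Without both deviating libraries the 4 classes called in both alleles held 1356, 555, 768 and 779 genes. Leaving out each library in turn, the difference was called for 5725 to 9742 genes, the first opposite class held 343 to 912, the reverse class 70 to 390, the genes raised by both 176 to 910, those lowered by both 269 to 917, *atfs-1(null)* alone 4162 to 7395 and *atfs-1(et18)* alone 393 to 881. With a block for the replicate number, the reverse class held 346 genes, the other opposite class 667, the genes raised by both 638 and those lowered by both 908. The block changed no call of a named gene in the text, and of the class sizes and the count of differences between the alleles it moved only the reverse class by over 1.5 times. The separate fits of each mutant gave no test of the difference, and *col-143*, *ule-1* and *R04D3.3* did not pass there in *atfs-1(et18)* (adjusted p = 0.078, 0.055 and 0.061 from edgeR), nor did *atfs-1* without a filter (0.077), or *col-143* and *R04D3.3* without both deviating libraries (0.088 and 0.056). Calls for genes at few counts are limited by depth, as a library of 24090660 counts cannot resolve levels much under its floor of 3 counts.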
